A study of Mus musculus with 12 samples.

Results

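DNA replication rests on 40 genes in this account, named one by one for their roles in licensing of origins, in DNA synthesis and in the supply of nucleotides, not for their values. All 40 were among the 38887 gene identifiers of the deposited table. All 40 also passed the filter on low counts, which left 15494 genes for testing. Across the 4 ages studied, 38 of the 40 (95%) had their highest mean at 7 days, where 31.1% of all tested genes did, and 37 had their lowest at 6 weeks.

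The libraries hold polyadenylated RNA of Ly6G+ cells from mouse spleen, taken at 2 days, 7 days, 14 days or 6 weeks after birth, with 3 libraries per age. Neutrophils carry Ly6G on their surface. At every age the labels call the cells PMN-MDSC, polymorphonuclear myeloid-derived suppressor cells. Strain, genotype, sex, treatment, number of mice per library and the way Ly6G+ cells were selected are not in the labels, and no group is marked as treated. Whether replicates are different animals is not stated, so a p-value here is set against library-to-library spread that could be technical only.

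Library totals ran from 34495767 to 38795913 counts. Ly6g itself lay between 74.9 and 189.5 CPM (counts scaled to a common normalized library size) in the 12 libraries, and the neutrophil gene S100a8 between 8697 and 16332 CPM, so defining markers of the labelled cells were present throughout. Transcripts of 4 Y-linked genes summed to 1816 to 4010 counts in each library of 2 or 7 days and to 0 or 1 in each older library, so the sex of the mice cannot be told apart from age between these ages. The 7-day libraries also stood apart in a heat-shock gene, Hspa1a, at 10674 to 13373 CPM against 64.6 to 109 CPM at 6 weeks. Replicate 2 of 2 days had the lowest normalization factor, 0.828, where the others ran up to 1.1. It gave the lowest of the 3 values of its age for 38 of the 40 replication genes.

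Before a cell divides it copies its genome once. In G1 the origin recognition complex, with Cdc6 and Cdt1, loads the MCM helicase on origins, which is called licensing. In S phase Cdc45 and the GINS complex turn MCM into an active helicase, primase and DNA polymerases copy the strands, and the sliding clamp PCNA, loaded by replication factor C, holds the polymerases on DNA. Many of these genes are transcribed at the G1/S transition under E2F factors, whose sites lie near the start of transcription. Mature neutrophils do not divide, while their precursors, the earlier granulocyte stages, do, and the spleen of newborn mice also makes blood cells.

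Windows of promoter sequence are shown because most of the replication genes were highest at the same age. RefSeq (GRCm38.p6) gave 37 windows, each from 250 bases before to 50 after a transcription start, for 33 of the 40 genes. The genes Mcm4, Gins1, Gins2, Gins4, Prim2, Pole and Rfc2 had no entry. E2F-type words were searched as TTTCCCGC, TTTGGCGC, TTTCGCGC and TTTGCCGC on both strands, where words on opposite strands can overlap. They were found in 13 of the 37 windows (35.1%), against 2.26% of all 32851 windows and 3.69% of the 13948 windows of tested genes. The CCAAT box, searched as CCAAT on both strands, was in 56.8% of the windows of replication genes and in 37.5% of those of tested genes. Median GC content was 60% in both. The stretches below are the words that lie before the start in 8 of the 13 genes with one, written along the gene's strand with the words in capitals. Starts are those of RefSeq.
Orc1: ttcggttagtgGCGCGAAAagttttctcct
Cdc6: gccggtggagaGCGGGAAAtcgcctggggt
Mcm5: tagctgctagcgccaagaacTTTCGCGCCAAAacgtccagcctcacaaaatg
Mcm6, upstream word: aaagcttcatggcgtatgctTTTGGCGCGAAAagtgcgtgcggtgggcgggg
Mcm6, downstream word: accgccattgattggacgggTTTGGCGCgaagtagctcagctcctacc
Mcm7: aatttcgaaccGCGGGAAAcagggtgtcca
Gins3: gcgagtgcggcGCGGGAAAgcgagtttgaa
Pola1: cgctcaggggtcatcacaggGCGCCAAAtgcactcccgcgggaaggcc
Rfc3: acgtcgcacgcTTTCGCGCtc

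They lie on the plus strand at chr4:108579416-108579445 (Orc1), chr11:98908002-98908031 (Cdc6), chr8:75109336-75109387 (Mcm5) and chr8:95633507-95633536 (Gins3). On the minus strand they lie at chr1:128359784-128359835 and chr1:128359725-128359772 (Mcm6), chr5:138172030-138172059 (Mcm7), chrX:93632266-93632313 (Pola1) and chr5:151651209-151651229 (Rfc3). In Mcm5 and in the upstream stretch of Mcm6, 2 words on opposite strands overlap. These matches describe the letters in the windows and are not evidence of binding.

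Over all 4 ages, 39 of the 40 replication genes differed at a Benjamini-Hochberg adjusted p under 0.05 (edgeR's quasi-likelihood test), or 97.5%, where 69.2% of all tested genes did. The exception was Rfc5, a clamp loader subunit (adjusted p = 0.11). The summed level of the 40 genes was 1185, 600 and 941 CPM in replicates 1 to 3 of 2 days. It was 1932, 1624 and 1834 CPM at 7 days, 889, 954 and 953 CPM at 14 days, and 597, 704 and 602 CPM at 6 weeks. The 7-day sums lay above all others, the 14-day sums lay above all 6-week sums, and the 2-day sums spread from the 6-week range to above the 14-day range. The median coefficient of variation of the 40 genes was 37.4% at 2 days and 10.6%, 12.1% and 12.7% at the later ages. In bulk RNA, a larger share of cells that transcribe a gene and more RNA per cell cannot be told apart.

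**Figure D1:**
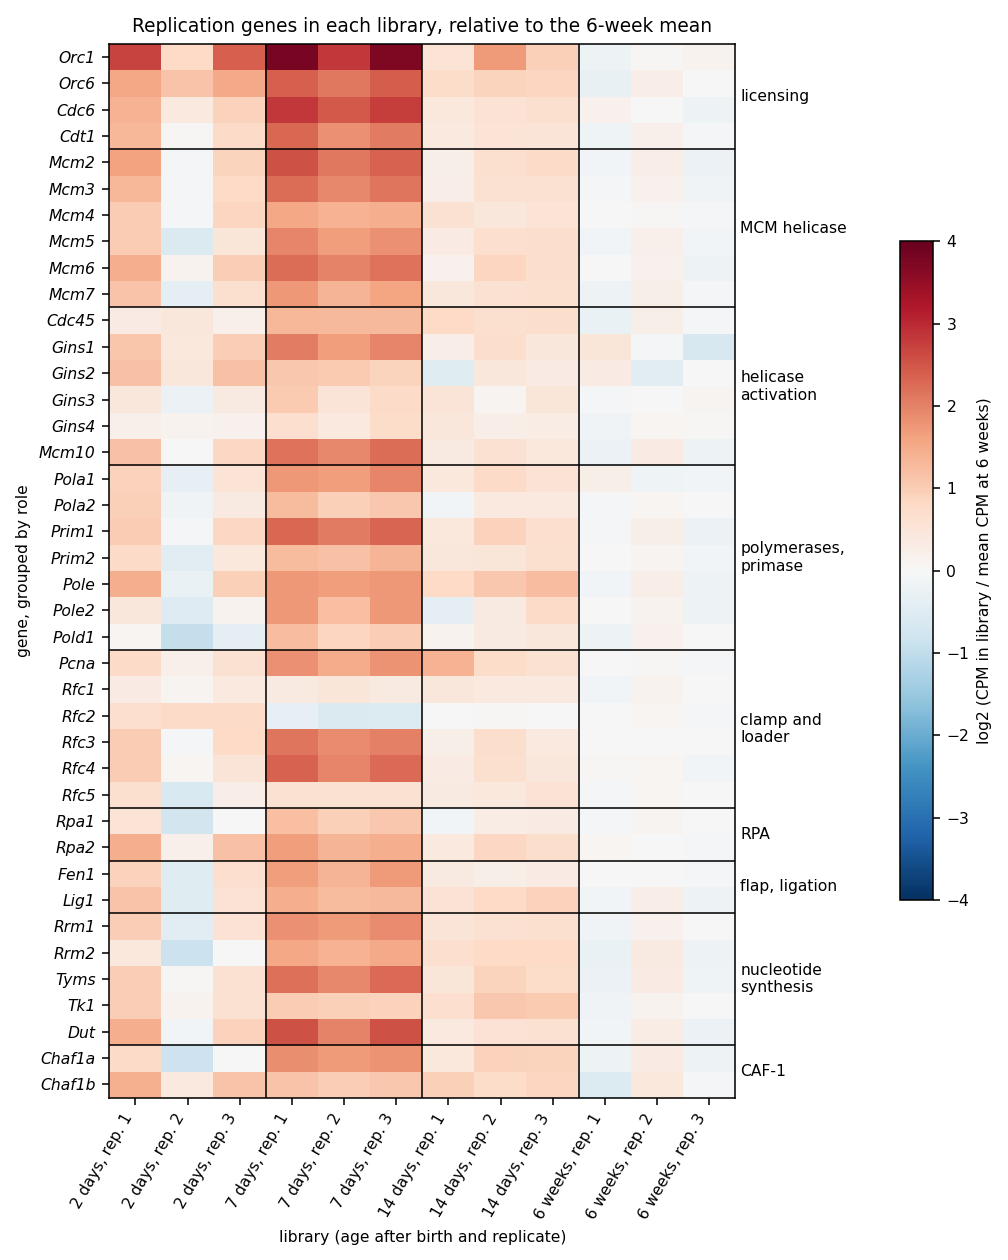
Each row is a replication gene, grouped by role, and each column a library. Colour gives the log2 ratio of its CPM to the 6-week mean of that gene (red higher, blue lower). The 7-day columns are red in every row except Rfc2, and replicate 2 of 2 days is paler or bluer than its partners in most rows.

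Against 6 weeks, 39 of the 40 genes were higher at 7 days and 1 was lower. Among all tested genes, 24.5% were higher and 26.6% lower in that comparison, 51% in all. The median log2 fold change of the 40 genes was 1.64, a 3.13-fold median, beside -0.01 for all genes, and 34 genes were over 2-fold higher (85%, against 12.4% of all genes). For 39 genes the 3 libraries of 7 days lay above all 3 of 6 weeks, as for 34.3% of all genes. Scaled by library totals alone, the medians moved to 1.82 and 0.16, and 39 genes remained higher.

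At 2 days 22 of the 40 genes were higher than at 6 weeks and 0 were lower in edgeR's test (all genes: 20.7% higher, 19.7% lower, 40.4% in all). At an unadjusted p under 0.05, 24 were higher (25.6% of all genes were) and 0 lower, and with DESeq2 and limma-voom 0 were lower as well. DESeq2 called 24 higher and limma-voom 15, against 22.3% and 20% of all genes. The median log2 fold change was 0.6, beside 0.04 for all genes, and for 10 of the 40 the libraries did not overlap and were higher, as for 24% of all genes. The genes over 2-fold higher were Orc1, Orc6, Rpa2 and Chaf1b, 10% of the 40 beside 10.3% of all genes. Leaving out a library moved the count of 22. It became 32 if 2-day replicate 2 was dropped, 7 without 2-day replicate 1 or 3, 9 without 6-week replicate 1, 7 without 6-week replicate 3 and 14 without 7-day replicate 3. Fitted with only these 2 ages it was 9.

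At 14 days 8 of the 40 genes were higher than at 6 weeks and 0 lower (edgeR; all genes: 9.68% higher, 9.26% lower, 18.9% in all): Orc6, Cdc45, Pole, Pcna, Rfc1, Tyms, Tk1 and Chaf1b. At an unadjusted p under 0.05, 22 were higher (16.9% of all genes were) and 0 lower, and 0 were lower with DESeq2 and limma-voom. All 40 log2 fold changes were above 0, with a median of 0.54. For 32 genes the libraries of 14 days lay above all those of 6 weeks, as for 22.2% of all genes. The count of 8 rose to 30 without 2-day replicate 2, which belongs to neither age but is part of the shared fit, when 15.6% of all genes were higher. Which part of the fit moved the count was not tested. It was 13 without 2-day replicate 1, 25 with only these 2 ages in the fit, 4 without 6-week replicate 1 or 3, and 5 without 2-day replicate 3, any 7-day library or 14-day replicate 2 or 3. The comparisons with 6 weeks share the 6-week libraries.

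**Figure D2:**
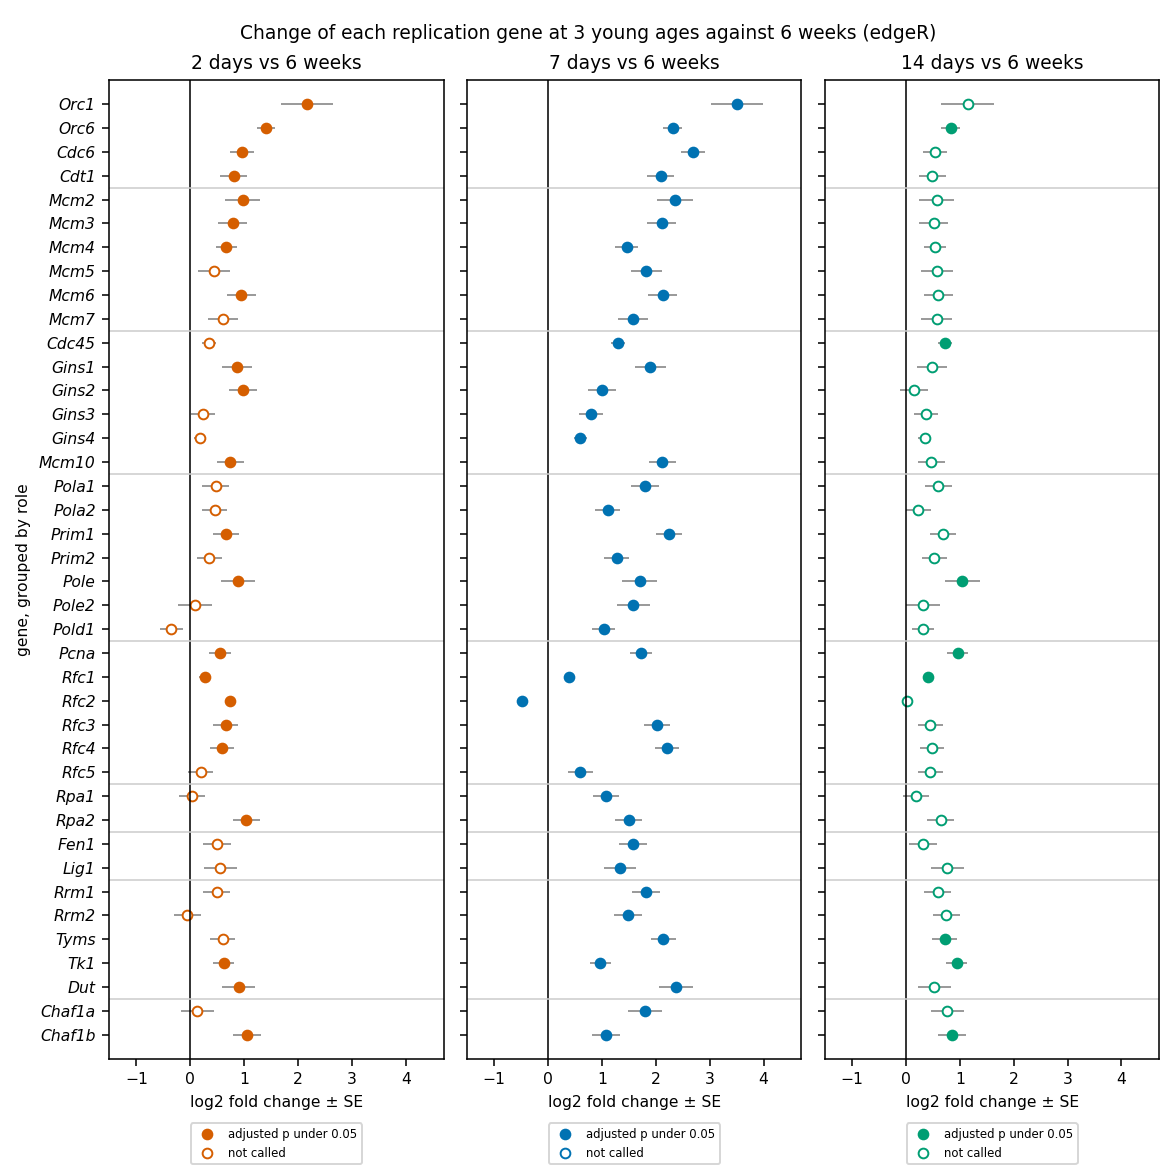
Log2 fold change of each replication gene against 6 weeks at 2, 7 and 14 days (edgeR; bars are standard errors, filled points have an adjusted p under 0.05). At 7 days all points lie right of 0 except Rfc2, at -0.48. At 14 days 8 points are filled.

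Between neighbouring ages, 33 genes were higher at 7 days than at 2 days and 1, Rfc2, was lower (all genes: 22.9% higher, 25.8% lower, 48.7% in all). The median log2 fold change was 1.13, or 1.23 by library totals, beside -0.01 and 0.14 for all genes. Gins2, Rfc1, Rfc5, Rpa2, Tk1 and Chaf1b did not pass. From 7 to 14 days 31 genes fell and 1, Rfc2, rose (all genes: 24% higher, 21.9% lower, 45.9% in all), with a median of -1.01. Gins3, Gins4, Pole, Rfc1, Rfc5, Lig1, Tk1 and Chaf1b did not pass. Rfc1, Rfc5, Tk1 and Chaf1b are thus the 4 genes that passed in neither step. Between 14 and 2 days 3 genes were higher, Cdc45, Pold1 and Rrm2, and 3 were lower, Orc6, Gins2 and Rfc2, against 12.8% and 12.3% of all genes. These small counts were 0 to 4 and 1 to 15 with a library left out. The 15 lower genes were found without 2-day replicate 2. Without 2-day replicate 3, 7-day replicate 3, or 14-day replicate 2 or 3, 0 were higher. Without 7-day replicate 1 or 2, 1 was higher, and without 2-day replicate 1 or 3 or 14-day replicate 1 or 3, 1 was lower.

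Licensing genes had the largest median log2 fold change of the roles at 7 days, 2.5. All 4, Orc1, Orc6, Cdc6 and Cdt1, were higher at 2 and at 7 days than at 6 weeks, all 4 rose from 2 to 7 days and all 4 fell from 7 to 14 days. Orc6, a subunit of the origin recognition complex (chromosome 8, 85299632 to 85308278, plus strand, GRCm38), was at 12, 9.15 and 11.7 CPM at 2 days and at 21.7, 17.7 and 22 CPM at 7 days. It was at 6.83, 7.67 and 7.5 CPM at 14 days and at 3.37, 4.93 and 4.04 CPM at 6 weeks. No 2 ages overlapped, and the order was 7 days, 2 days, 14 days, 6 weeks. The log2 fold change against 6 weeks was 1.41 (SE 0.17, edgeR adjusted p = 4.27e-05) at 2 days, 2.31 (SE 0.17, adjusted p = 1.32e-06) at 7 days and 0.83 (SE 0.17, adjusted p = 0.00514) at 14 days.

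Cdt1, which brings MCM to origins (chromosome 8, 122568015 to 122573554, plus strand), was at 29.4, 12.1 and 19.9 CPM at 2 days and at 57.1, 41.8 and 49.8 CPM at 7 days. At 14 days it was at 15.4, 17 and 16.7 CPM and at 6 weeks at 10.4, 13.4 and 11.2 CPM. Its 7-day libraries were above all others, while 2-day replicate 2 lay within the 6-week range. The change at 7 days was 2.09 (SE 0.25, adjusted p = 4.01e-05). At 2 days it was 0.81 (adjusted p = 0.0204), a call that was lost without 2-day replicate 1 or 3 or 6-week replicate 1 or 3, and with only these 2 ages in the fit.

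Cdc6, an ATPase that helps load MCM, averaged 9.08 ± 3.13 CPM (SD, n = 3) at 2 days, 30.2 ± 4.1 at 7 days, 6.81 ± 0.544 at 14 days and 4.68 ± 0.584 at 6 weeks. From 2 to 7 days it rose by 1.73 on the log2 scale and from 7 to 14 days it fell by 2.15. Orc1, the largest subunit of the origin recognition complex, had the lowest level per length of the 40 genes (0.708 CPM per kb of exon over all libraries) and the largest fold. It went from 0.516 ± 0.065 CPM at 6 weeks to 5.87 ± 1.92 CPM at 7 days, 11.3-fold higher (log2 fold change 3.5, SE 0.48). Its 3 libraries of 2 days, at 3.35, 0.889 and 2.71 CPM, were spread more widely (coefficient of variation 55.1%) than those of any other of the 40 genes at that age.

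The MCM helicase is a ring of 6 subunits that unwinds DNA, and its genes moved in the same direction in these steps. All 6 were higher at 7 days than at 6 weeks, with log2 fold changes from 1.46 (Mcm4) to 2.35 (Mcm2), all 6 rose from 2 to 7 days and all 6 fell from 7 to 14 days. At 2 days 4 of 6 passed against 6 weeks (Mcm2, Mcm3, Mcm4 and Mcm6), but 0 did without 2-day replicate 1 or 6-week replicate 3, and only Mcm6 did without 2-day replicate 3 or 6-week replicate 1. At 14 days 0 of 6 passed in edgeR, although 2 had an unadjusted p under 0.05, and 0 passed with DESeq2 or limma-voom. Without 2-day replicate 2, or with only these 2 ages in the fit, Mcm3, Mcm4, Mcm5, Mcm6 and Mcm7 passed at 14 days. The summed level of the 6 genes was 357, 133 and 256 CPM at 2 days, 621, 501 and 569.6 at 7 days, 196, 239 and 241 at 14 days and 144, 173 and 139.9 at 6 weeks.

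Mcm5, the highest of them per length (chromosome 8, 75109569 to 75128439, plus strand), was at 73.6, 24.4 and 50.7 CPM at 2 days and at 142, 116 and 128 CPM at 7 days. It was at 45.7, 58.4 and 59.3 CPM at 14 days and at 33.4, 41.8 and 34.1 CPM at 6 weeks. The 2-day libraries ran from below the 6-week range to above the 14-day range, so only the 7-day level stood clear. The 7-day change was 1.82 (SE 0.29, adjusted p = 0.000303), and the 2-day change, 0.44, did not pass except without 2-day replicate 2 (0.78). Mcm3 (chromosome 1, 20802968 to 20820312, minus strand) was at 52.2, 19.4 and 35.6 CPM at 2 days and at 98.2, 77.7 and 91.6 CPM at 7 days. At 14 days it was at 25, 31.9 and 31.9 CPM and at 6 weeks at 19.8, 23.3 and 18.9 CPM. It also stood clear at 7 days (log2 fold change 2.11, SE 0.27, adjusted p = 6.38e-05), and its 14-day libraries lay just above those of 6 weeks without passing the test (0.52, adjusted p = 0.199).

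Helicase activation factors were higher at 7 days in 6 of 6, by 0.6 (Gins4) to 2.12 (Mcm10). Cdc45, the helicase cofactor that joins MCM and GINS (chromosome 16, 18780447 to 18811987, minus strand), was at 18.4, 20.3 and 17.1 CPM at 2 days and at 36.8, 35.8 and 35.8 CPM at 7 days. It was at 25.8, 22.9 and 23.7 CPM at 14 days and at 12.3, 17.4 and 14.3 CPM at 6 weeks. Cdc45 thus followed another order than Orc6: its 14-day libraries were above all those of 2 days, and replicate 2 of 2 days was not low. For 5 of the 40 genes and 16.9% of all genes the 14-day libraries lay above all those of 2 days. The changes against 6 weeks were 1.3 (SE 0.13, adjusted p = 9.71e-06) at 7 days and 0.72 (adjusted p = 0.00252) at 14 days. The 14-day level exceeded that of 2 days by 0.38 (adjusted p = 0.0487), which was lost in 12 of 18 alternatives.

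The GINS genes, which encode the 4 subunits of a complex that activates MCM, are given one by one. Gins1 rose to 6.45 ± 0.883 CPM at 7 days from 3.15 ± 0.75 at 2 days. Gins2 measured 28.4 ± 7.4 CPM at 2 days and 29.1 ± 1.78 at 7 days, and fell to 16.3 ± 5.15 at 14 days. Gins3 and Gins4 were 1.73-fold and 1.52-fold higher at 7 days than at 6 weeks. Reads of Gins2 cannot be told apart from those of Gse1 on the other strand over 2758 bases of exon, since the labels do not say that strand was kept, and Gse1 was higher at 2 days (126 ± 16.2 CPM) than at 7 days (85.5 ± 2.89 CPM).

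All 7 polymerase and primase genes were higher at 7 days than at 6 weeks and than at 2 days, and 6 of 7 fell from 7 to 14 days, Pole being the exception. Prim1, the catalytic primase subunit (chromosome 10, 128015168 to 128030037, plus strand), was at 10.4, 5 and 9.12 CPM at 2 days and at 25.5, 22.1 and 26.1 CPM at 7 days. It was at 6.97, 9.88 and 8.23 CPM at 14 days and at 4.99, 6.17 and 4.4 CPM at 6 weeks. The 7-day libraries were again apart, 4.73-fold above 6 weeks (log2 SE 0.24, adjusted p = 1.86e-05). Pold1, the catalytic subunit of polymerase delta (chromosome 7, 44532746 to 44548849, minus strand), was at 36.3, 18 and 26.9 CPM at 2 days and at 80.6, 62.1 and 68.7 CPM at 7 days. At 14 days it was at 37.8, 44.7 and 47.1 CPM and at 6 weeks at 29.8, 38.8 and 34.9 CPM. Pold1 was lowest at 2 days, where 2 of its 3 libraries lay below all those of 6 weeks (log2 fold change -0.35, adjusted p = 0.209, or -0.64 and past the test without 2-day replicate 1). Pole, the catalytic subunit of polymerase epsilon, was 2.06-fold higher at 14 days than at 6 weeks (11.1 ± 1.68 against 5.39 ± 0.894 CPM, adjusted p = 0.0386), a call lost in 11 alternatives.

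Sliding clamp and clamp loader genes split. Pcna, the clamp (chromosome 2, 132249162 to 132253314, minus strand), had the highest level per length of the 40 genes, 40.4 CPM per kb. It was at 86.5, 57.8 and 76.3 CPM at 2 days, 180, 142 and 175 CPM at 7 days, 133, 84.1 and 77.1 CPM at 14 days and 50.3, 51.8 and 49.2 CPM at 6 weeks. All libraries of the younger ages were above all those of 6 weeks, and replicate 1 of 14 days was far above its partners. The changes were 0.55 at 2 days (adjusted p = 0.0453), 1.72 at 7 days (SE 0.2, adjusted p = 3.34e-05) and 0.96 at 14 days (adjusted p = 0.00617). The call at 2 days was lost without either of 2-day replicates 1 and 3, without any 7-day or any 6-week library, without 14-day replicate 2 and without a filter on low counts. Rfc3 and Rfc4, small subunits of the loader, were 4.06-fold and 4.61-fold higher at 7 days than at 6 weeks. Rfc1, the large subunit, was flatter: 51.7 ± 4.9, 56.1 ± 2.72, 56.8 ± 1.54 and 42.7 ± 3.71 CPM in order of age. Rfc5 was at 20.5 ± 0.093 CPM at 7 days and 13.5 ± 0.77 CPM at 6 weeks, and its call (adjusted p = 0.0413) was lost without any 1 library of 7 days or 6 weeks.

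Rfc2, another small subunit of the same loader (chromosome 5, 134581366 to 134601805, plus strand), went the other way. It was at 63.5, 67.9 and 69 CPM at 2 days, 32, 27.2 and 27.4 CPM at 7 days, 40.1, 41.1 and 40.8 CPM at 14 days and 40.3, 42.1 and 38.3 CPM at 6 weeks. The 2-day libraries were highest and the 7-day libraries lowest, with no overlap with the other ages (from 2 to 7 days, 27.7% of all genes were lower without overlap), and 2-day replicate 2 lay between its partners. Rfc2 was higher at 2 days than at 6 weeks by 0.73 (SE 0.09, adjusted p = 7.66e-05). It was lower at 7 days than at 2 days (log2 fold change -1.21, SE 0.1, adjusted p = 2.13e-06), and the 7-day change against 6 weeks was -0.48 (adjusted p = 0.00121), or -0.3 and no longer past the test by library totals (adjusted p = 0.0614). Exons of Rfc2 overlap those of Lat2, an adaptor gene of mast cells and other leukocytes on the opposite strand, by 952 bases, and the counts of both cannot be told apart there. Lat2 was at 36.8 ± 6.71 CPM at 2 days and 15.1 ± 1.51, 18.5 ± 3.65 and 15.7 ± 1.08 CPM later. Like Rfc2 it was highest at 2 days, but its 7-day level did not differ from that of 6 weeks past the test (log2 fold change -0.05, adjusted p = 0.821). The part of Lat2 reads in Rfc2 was not tested. In all, 15 of the 40 genes share exon bases with another gene.

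**Figure D3:**
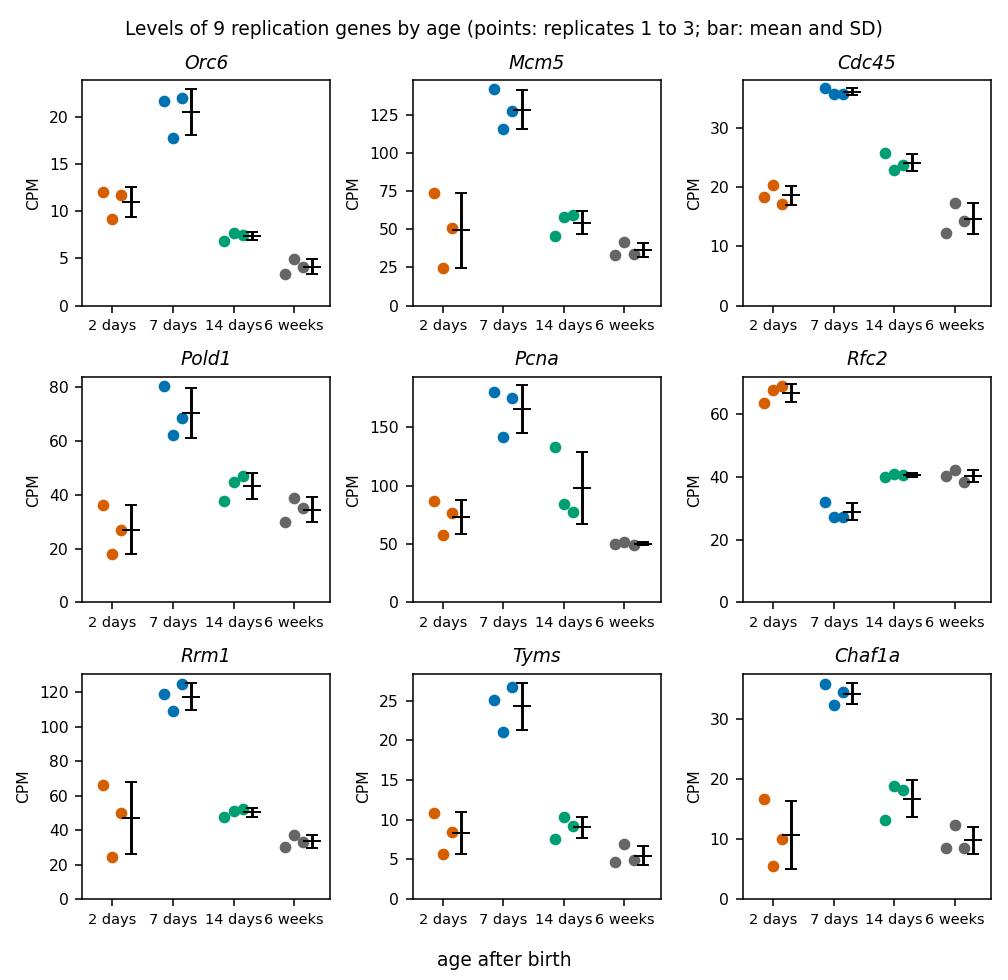
CPM of 9 replication genes by age. Points are replicates 1 to 3 and bars the mean and SD. Every gene except Rfc2 is highest at 7 days; Rfc2 is highest at 2 days, from 63.5 to 69 CPM, and lowest at 7 days, from 27.2 to 32 CPM.

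The subunits of replication protein A, which coats single-stranded DNA, were both higher at 7 days than at 6 weeks. Rpa1, its large subunit (chromosome 11, 75298166 to 75348324, minus strand), was at 46.1, 19.1 and 32.1 CPM at 2 days and at 72.4, 61.9 and 66.9 CPM at 7 days. It was at 29.6, 39 and 39.6 CPM at 14 days and at 29.8, 34 and 31.2 CPM at 6 weeks. Rpa1 stood clear at 7 days only, 2.12-fold above 6 weeks (adjusted p = 0.00247). Rpa2, the middle subunit (chromosome 4, 132768332 to 132778752, plus strand), was at 22.5, 9.45 and 18.7 CPM at 2 days, 26.2, 21.3 and 22.5 CPM at 7 days, 10.9, 14.6 and 13.3 CPM at 14 days and 8.69, 8.18 and 7.82 CPM at 6 weeks. Its 2-day libraries were all above those of 6 weeks, by 1.04 (SE 0.25, adjusted p = 0.00536), and 2-day replicate 1 reached the 7-day range.

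Fen1, the nuclease that trims Okazaki flaps (chromosome 19, 10199132 to 10204169, minus strand), was at 24.4, 9.12 and 20.5 CPM at 2 days and at 41.2, 32.9 and 41.3 CPM at 7 days. It was at 16.5, 15.2 and 16.1 CPM at 14 days and at 13, 13 and 12.5 CPM at 6 weeks. Lig1, the ligase that seals the nicks (chromosome 7, 13277283 to 13311433, plus strand), was at 42.5, 13.7 and 28.8 CPM at 2 days, 52.5, 46.5 and 47.5 CPM at 7 days, 28.8, 33 and 36.7 CPM at 14 days and 17.8, 23.3 and 16.7 CPM at 6 weeks. Both were higher at 7 days than at 6 weeks (3-fold and 2.54-fold; adjusted p = 0.000371 and 0.00257), and neither passed at 2 or 14 days, but without 2-day replicate 2 both passed at both ages. At 14 days both also passed with only these 2 ages in the fit, and Lig1 without 2-day replicate 1. In both genes 2-day replicate 2 was the lowest of all 12 libraries.

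Nucleotide synthesis genes were higher at 7 days than at 6 weeks in 5 of 5. Rrm1, the large subunit of ribonucleotide reductase (chromosome 7, 102441695 to 102469771, plus strand), was at 66.1, 24.6 and 50.2 CPM at 2 days and at 119, 109 and 125 CPM at 7 days. It was at 47.5, 51.3 and 52.3 CPM at 14 days and at 30.2, 37.4 and 33.1 CPM at 6 weeks. The 14-day libraries were above all those of 6 weeks and below all those of 7 days, and the 7-day change was 1.81 (SE 0.26, adjusted p = 0.000128). Its partner Rrm2 measured 34.6 ± 14.2, 101 ± 5.47, 60.8 ± 3.2 and 36.1 ± 9.22 CPM in order of age. Tyms, thymidylate synthase (chromosome 5, 30058202 to 30073617, minus strand), was at 10.9, 5.66 and 8.41 CPM at 2 days, 25.1, 21 and 26.7 CPM at 7 days, 7.62, 10.3 and 9.2 CPM at 14 days and 4.71, 6.89 and 4.89 CPM at 6 weeks. The 14-day libraries again lay between those of 7 days and 6 weeks, with changes of 2.14 at 7 days (SE 0.23, adjusted p = 1.93e-05) and 0.72 at 14 days (adjusted p = 0.0479, lost in 11 alternatives). Dut, which removes dUTP, was 5.17-fold higher at 7 days. Tk1, the thymidine kinase of the salvage route, did not pass from 7 to 14 days: it was at 31.1 ± 0.963 CPM at 7 days and 30.4 ± 4.64 CPM at 14 days, against 15.8 ± 1.46 CPM at 6 weeks (0.97 and 0.94 on the log2 scale, adjusted p = 0.000988 and 0.00448).

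Chromatin assembly factor 1 places histones on new DNA, and both its genes listed here were higher at 7 days than at 6 weeks. Chaf1a, its large subunit (chromosome 17, 56040439 to 56072289, plus strand), was at 16.7, 5.5 and 9.94 CPM at 2 days and at 35.8, 32.3 and 34.4 CPM at 7 days. It was at 13.2, 18.8 and 18.1 CPM at 14 days and at 8.47, 12.4 and 8.53 CPM at 6 weeks. Its 2-day libraries spanned the 6-week range, and the 7-day change was 1.8 (SE 0.31, adjusted p = 0.000498). Chaf1b stayed at like means of 11.2 ± 3.7, 11.3 ± 0.596 and 9.74 ± 0.679 CPM at the 3 younger ages, against 5.39 ± 1.77 CPM at 6 weeks, where replicates spread from 3.71 to 7.23 CPM. Exons of Chaf1a share 4648 bases with Ubxn6 on the other strand, which was at 52.5 ± 2.94 CPM at 7 days and 56.5 ± 1.24 CPM at 6 weeks.

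Other genes of replication are a list of 39 with further origin, polymerase, nucleotide and fork protection genes. Of these, 29 were higher and 4 lower at 7 days than at 6 weeks (all genes: 24.5% and 26.6%). From 7 to 14 days 21 fell and 3 rose (all genes: 21.9% and 24%). At 2 days 14 were higher and 2 lower than at 6 weeks (all genes: 20.7% and 19.7%). The count of 14 was 22 without 2-day replicate 2, 6 or 5 without 2-day replicate 1 or 3, and 8 or 7 without 6-week replicate 1 or 3. The summed level of the 39 did not follow the counts. It was 1442 to 2114, 1619.8 to 1716, 1782 to 1911 and 1946 to 2096 CPM in order of age, so the 7-day sums lay below those of 6 weeks. Dctd, which makes the substrate of Tyms, was low throughout, at 2.91 ± 0.419 CPM at 7 days against 0.508 ± 0.0354 CPM at 6 weeks (log2 fold change 2.51, adjusted p = 5.03e-05). Pole4, a small subunit of polymerase epsilon, was 2.06-fold higher. Dck, a salvage kinase for deoxycytidine, was lower at 7 days (84 ± 15.3 against 277 ± 49.7 CPM; log2 fold change -1.72, adjusted p = 0.00208). In Dck it was 2-day replicate 2 that stood out, at 154 CPM beside 44.5 and 56.8 CPM.

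Regulators of G1/S, 30 genes, gave 19 higher and 3 lower at 7 days than at 6 weeks (all genes: 24.5% and 26.6%). From 7 to 14 days 14 fell and 5 rose (all genes: 21.9% and 24%), and 3 rose without 7-day replicate 1 or 3 or 14-day replicate 1. At 2 days 8 were higher and 8 lower than at 6 weeks (26.7% each, against 20.7% and 19.7% of all genes), with a median log2 fold change of 0.02. Those higher were 4 or 5 without 2-day replicate 1 or 3 and 5 without 6-week replicate 1 or 3, and those lower were 4 without 2-day replicate 3 or 6-week replicate 1 or 2 and 5 without 6-week replicate 3. Ccne2, a cyclin E that starts S phase, was at 5.87, 5.73 and 5.92 CPM at 2 days, 22, 17 and 22.3 CPM at 7 days, 5.22, 6.72 and 6.39 CPM at 14 days and 3.09, 2.99 and 2.57 CPM at 6 weeks. Its 7-day libraries were 7.08-fold above 6 weeks (adjusted p = 2.3e-07). Cyclin D1, encoded by Ccnd1, went against this, from 8.08 ± 1.77 CPM at 2 days over 12.1 ± 1.69 and 24.9 ± 8.01 CPM to 48.9 ± 11 CPM at 6 weeks (7 days against 6 weeks -2.01, adjusted p = 5.35e-05). Cdkn1a, an inhibitor of cyclin-dependent kinases that also binds PCNA, was higher than at 6 weeks at 7 days (1.59, adjusted p = 4.11e-05) and at 14 days (2.14, adjusted p = 3.57e-05).

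Mitosis markers, 20 genes of the later phases of the cell cycle, are counted here beside the replication genes. At 7 days 18 were higher than at 6 weeks and 1, Kif23, was lower (56 ± 3.74 CPM at 7 days against 85.4 ± 4.96 CPM at 6 weeks). Among all tested genes 24.5% were higher and 26.6% lower. At 14 days 17 of 20 were higher than at 6 weeks (9.68% of all genes were), where 8 of the 40 replication genes were. In the comparison of 14 days with 2 days, 20 of 20 were higher (12.8% of all genes were), where 3 of 40 were. At 2 days 3 of the mitosis markers were lower than at 6 weeks (15%, against 19.7% of all genes) and 17 did not pass. The median log2 fold change was -0.31, beside 0.6 for the replication genes and 0.04 for all genes. The count of 17 was 5 without 6-week replicate 1 or 3, 8 or 9 without any 1 library of 14 days and 11 with the replicate block. The count of 8 replication genes was 30 without 2-day replicate 2, 25 with only 14 days and 6 weeks in the fit and 4 without 6-week replicate 1 or 3. Without overlap, 20 of the 20 markers and 32 of the 40 replication genes lay above 6 weeks at 14 days, as did 22.2% of all genes. The 3 lower markers at 2 days were 10 without 2-day replicate 1 and 5 without 6-week replicate 1, and 1 without 2-day replicate 2 or 3 or 6-week replicate 2. Whether the 2 lists differ was not tested.

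Mki67, the gene of the proliferation marker Ki-67, was at 193, 135 and 169 CPM at 2 days, 630.5, 636 and 690.1 CPM at 7 days, 341, 322 and 321 CPM at 14 days and 125, 185 and 148 CPM at 6 weeks. The 14-day libraries stood well above those of 2 days, which overlapped 6 weeks. Cenpe, a kinetochore motor, was 3.75-fold and Nusap1, a spindle protein, 3.03-fold higher at 7 days than at 6 weeks. Summed over the list, the 2-day libraries were at 752, 443 and 606 CPM, the 7-day libraries at 2006, 1998 and 2083 CPM, the 14-day libraries at 1388, 1298 and 1345 CPM and the 6-week libraries at 611, 888 and 719.8 CPM. Replicate 2 of 2 days was the lowest here as well.

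Markers of other cells moved with age beside these results. Among all tested genes, 24.5% were higher and 26.6% lower at 7 days than at 6 weeks. From 2 to 7 days 22.9% of all genes rose and 25.8% fell, and from 7 to 14 days 24% rose and 21.9% fell. Erythroid markers, which include genes of dividing red cell precursors, were higher at 7 days than at 6 weeks in 20 of 20 and fell from 7 to 14 days in 20 of 20. Their summed level was 547 to 1080.1 CPM at 2 days, 4155 to 6901 CPM at 7 days, 135 to 429 CPM at 14 days and 219 to 693 CPM at 6 weeks, and no marker was at 0 over an age. Within 7 days, replicate 2 was lowest both in this sum and in 36 of the 40 replication genes. The same replicate was also lowest in the sums of mitosis, early granulocyte, B and plasma cell, T and NK cell, and stem and progenitor genes. It was highest in those of late granulocyte precursor, mature neutrophil, megakaryocyte and stromal genes, and between its partners in the mast cell and monocyte lists. At 14 days the erythroid sums overlapped those of 6 weeks, while the summed replication genes, at 889 to 954 CPM, lay above 597 to 704 CPM. The 8 genes listed for early granulocytes were Mpo, Elane, Prtn3, Ctsg, Ms4a3, Cebpe, Gfi1 and Myb. They summed to 462 to 629, 759.6 to 920.3, 345 to 395 and 244 to 421 CPM in order of age, with 6 of 8 higher at 7 days than at 6 weeks. Mature neutrophil genes (13) went the other way at 7 days, when their sum was lowest, at 33164 to 35391 CPM against 50231 to 55557 CPM at 6 weeks. Of them, 8 were lower and 0 higher than at 6 weeks, and 9 lower and 0 higher than at 2 days (5 lower without 7-day replicate 1 or 3). The 8 genes listed for late granulocyte precursors, a stage between these, did not follow either list. They summed to 38068 to 44277, 51272 to 59369, 63031 to 70527 and 43361 to 72669 CPM in order of age. At 7 days 1 of these 8 was higher and 0 were lower than at 6 weeks. B and plasma cell markers (13) rose in 9 and fell in 0 from 2 to 7 days, and fell in 9 and rose in 1 from 7 to 14 days. Their sums were 377 to 446, 723 to 803, 284 to 567 and 744 to 779 CPM in order of age, so the 7-day and 6-week sums overlapped. Singly, 3 of the 13 were higher and 1 was lower at 7 days than at 6 weeks. These counts were 2 to 8 and 1 to 4 in the alternatives. The highest mean was at 7 days in 9 of the 13 (69.2%, against 31.1% of all genes). The part of erythroid cells, of early granulocytes, of mature neutrophils, of B cells, of stem and progenitor cells and of the heat-shock difference at 7 days in the replication result was not tested.

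At 2 days other markers stood out. The 14 genes of mast cells, basophils and eosinophils summed to 5328, 2768 and 4917 CPM in replicates 1 to 3, against at most 336 CPM in any older library, with Tpsab1 at 0 counts at 14 days and 6 weeks. Of the 14, 12 were higher and 2 lower at 2 days than at 6 weeks (all genes: 20.7% and 19.7%), and 10 had their highest mean at 2 days. The 8 stem and progenitor genes, of which Kit is also among those 14, summed to 390.5, 179 and 288 CPM, against 36 to 96.3 CPM in older libraries. Mature neutrophil genes summed to 37653, 67469 and 46632 CPM. Replicate 2, which had the lowest replication sum, was thus lowest in the first 2 of these lists and highest in the third. Their part in the spread of the 2-day values was not tested. Of the 7 stem and progenitor genes that were tested, 5 were higher and 1 lower at 7 days than at 6 weeks (all genes: 24.5% and 26.6%). Their 7-day sums, 75.9 to 91.4 CPM, lay above the 6-week sums, 36 to 66 CPM. The 18 monocyte, macrophage and dendritic cell markers had their highest sum at 6 weeks, at 4343 to 4622 CPM against at most 2298 CPM at any younger age. Singly, 10 had their highest mean at 6 weeks, 5 at 14 days, 2 at 2 days and 1 at 7 days. From 2 to 7 days 10 of 18 rose and 2 fell (all genes: 22.9% and 25.8%). T and NK cell markers summed to 74.3 to 99.3, 102 to 132, 53.3 to 105 and 152 to 185 CPM in order of age, and 6 of 12 rose and 2 fell from 2 to 7 days. Summed over all libraries, megakaryocyte markers ran from 66.6 to 126 CPM and stromal markers from 48.6 to 125 CPM, but single markers moved with age. Of 9 megakaryocyte markers, 6 were higher and 1 lower than at 6 weeks, both at 2 days and at 7 days. Of 8 stromal markers tested, 7 were higher and 1 lower at 2 days than at 6 weeks. At 14 days 7 of these 8 were lower than at 2 days (12.3% of all genes were).

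**Figure D4:**
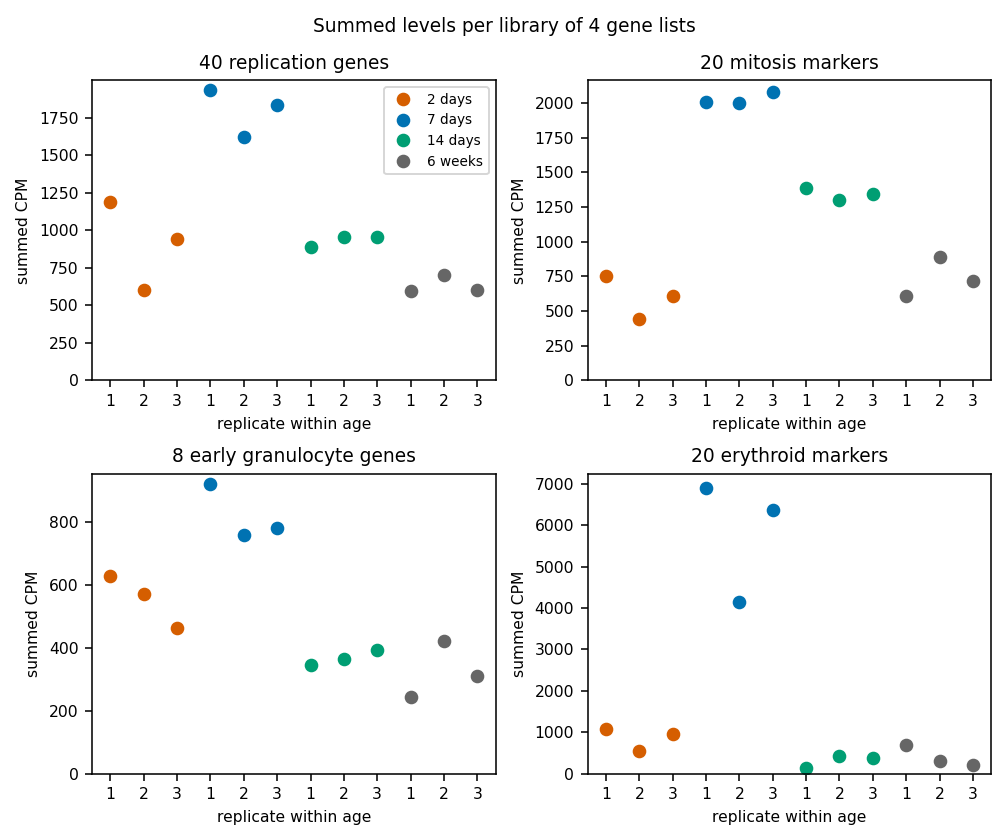
Summed CPM per library of the 40 replication genes, 20 mitosis markers, 8 early granulocyte genes and 20 erythroid markers, by age and replicate. All 4 sums are highest at 7 days. At 14 days the mitosis sums are above those of 2 days and 6 weeks, the replication sums are above those of 6 weeks, and the erythroid sums overlap those of 6 weeks.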

How the data were processed

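The deposited table holds whole-number counts per Ensembl gene identifier for 12 libraries of polyadenylated RNA, primed with random hexamers per the labels' protocols. The submitters' processing notes list build mm10 and the tools RSEM 1.2.3 and DESeq2 but not what each was used for, so the deposited counts may be rounded RSEM estimates in which reads of similar genes were divided. Whether strand was kept is not given in the sources used here. Symbols, positions and exon lengths came from GENCODE M21 (GRCm38, the assembly of mm10) and were found for 37570 of 38887 identifiers. The other 1317 stayed in the totals.

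The time label of each library gave its group. Genes were filtered with filterByExpr (minimum count 10) and scaled with TMM factors. They were tested with edgeR 4.0.16 (glmQLFit, glmQLFTest; R 4.3.3) in 1 model over all 12 libraries with age as the only term. P-values were adjusted by Benjamini-Hochberg over all 15494 genes, threshold 0.05. SE is the absolute log2 fold change over the square root of F. The alternatives were library totals, DESeq2 1.42.0, limma-voom (limma 3.58.1), no filter, a replicate block, only 2 ages in the fit, and leaving out each library. The procedure was tested on simulated counts. Totals were 34495767 to 38795913 counts per library, and libraries of an age differed by more than counting error alone.

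The 40 genes, their role classes and the other lists were chosen with earlier results of these data known. By rule, values in every library are given for the gene with the highest mean CPM and the gene with the smallest joint p of each role, and for genes opposite to their role. From each of the other replication, G1/S and mitosis lists the rule named the 3 genes with the smallest joint p and the 1 most opposite. Of these, 1 gene is not reported here. Other genes of the 40 are named to account for all. Promoter stretches are printed for every gene of the 40 with a word before the start, which is wider than the rule for named genes, and words after the start are only counted. Azu1 and Ahsp, in the marker lists, were not analysed here. The pseudogene Pcna-ps2 had 136 counts over all libraries and Pcna-ps1 0.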

Additional observations from a re-analysis of the deposited data

How the results depend on the processing

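Calls at 7 days changed little: against 6 weeks 38 to 39 genes were higher with any library left out (Rfc5 was the 1 lost), against 2 days 28 to 36, and from 7 to 14 days 25 to 35 fell. Of the 40 genes, 37 to 40 differed with age. The 2-day and 14-day counts did not keep theirs. With a library left out, 7 to 32 genes were higher and 0 to 1 lower at 2 days than at 6 weeks (Pold1, without 2-day replicate 1), 4 to 30 were higher at 14 days than at 6 weeks, and 0 to 4 were higher and 1 to 15 lower at 14 than at 2 days. By library totals, 13 were higher at 2 days and 5 at 14 days than at 6 weeks, 0 were lower at 7 days (Rfc2, -0.3), and 1 was higher and 1 lower at 14 than at 2 days. With only the 2 ages in the fit these counts were 9 at 2 days, 25 at 14 days, and 0 higher and 1 lower at 14 than at 2 days, with fewer libraries behind the spread. The cause of these shifts was not tested. Scaling by totals moved the share of calls that were higher from 47.9% to 59.3% (7 days against 6 weeks), 51.1% to 58% (14 days against 6 weeks), 47.1% to 57% (7 against 2 days), 51% to 57.7% (14 against 2 days), 51.3% to 51.7% (2 days against 6 weeks) and 52.2% to 46.2% (14 against 7 days).

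With the replicate block, 13 genes were higher at 2 days and 5 at 14 days than at 6 weeks, and 1 was higher at 14 than at 2 days. Rfc5 lost its call at 7 days. Over all ages, same-numbered libraries mostly do not deviate together (r over 0.1 in 3 of 18 pairs, from -0.36 to 0.32), and 4 of 12 libraries correlate best with their own number. Between 2 and 7 days the same-numbered pairs were at 0.29, 0.32 and 0.1, and the different-numbered pairs at -0.34 to 0.12. Whether the numbers mark a pairing or a shared batch cannot be told from these correlations. Libraries of an age differed by far more than counting noise (chi-square per degree of freedom from 9.06 to 167).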

Other observations

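Replicate 1 of 14 days differed from its partners in Pcna and in Cdkn1a, whose protein binds PCNA. Pcna was at 133 CPM there, against 84.1 and 77.1 CPM, and Cdkn1a at 47.8 CPM, against 30 and 26.9 CPM. These were chosen after their values were seen. In the same library 32 of the 40 replication genes were the lowest of their age, and its normalization factor was 0.918.

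Per kb of exon, the replication genes differed widely in level. Averaged over all libraries, Pcna (40.4 CPM per kb) and Rrm2 (21) were highest, followed by Mcm5 (16.8) and Gins4 (14.5). Pole (0.988) and Orc1 (0.708) were lowest. Among the MCM genes, 5 lay between 11.2 and 16.8 CPM per kb, and Mcm2 at 5.68. Exon lengths are unions over annotated transcripts, so a gene with long alternative exons has a lower value.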
